A study of Mus musculus with 6 samples.

Results

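Immediate early genes are transcribed within minutes of a stimulus and need no new protein for it. The 10 genes described here all encode proteins of the cell nucleus. Fos, Fosb, Jun and Junb are subunits of the dimeric transcription factor AP-1. Egr1 is a zinc finger transcription factor, Atf3 is a stress-induced partner of Jun proteins, and Ier2 is a small growth-factor-inducible nuclear protein. Nr4a1, Nr4a2 and Nr4a3 form the NR4A family of orphan nuclear receptors. The genes were taken from the table by their symbols. All 10 were found among the 34714 gene symbols of the count table, and all 10 were among the 15788 genes with enough reads to be tested.

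Gastrocnemius (Gas) muscle was taken from mice of 8 weeks that had received no treatment, and 3 wild-type (WT) and 3 miR-92b knockout (M92KO) libraries were sequenced. The WT mice were C57BL/6. The M92KO mice were males of the strain C57BL/6JGpt-Mir-92bem22Cd549/Gpt, in which miR-92b is missing from every tissue and not only from muscle. The comparison asks how transcript levels in muscle differ when this microRNA is absent. For treated mice of the study, the supplementary methods describe running tests and then a night without food before tissue was taken. Whether these 6 muscles came from animals handled that way is not given in the sources used here.

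In muscle, calcium rising with each contraction, growth factor signalling through MAP kinases and cyclic AMP all converge on a few DNA-bound factors. Among them are SRF with its ETS partners and CREB, which switch these genes on. The transcripts and proteins decay fast, so their level follows the recent activity of a tissue. Contraction, injury, stress hormones and the handling of tissue are all known to raise them, and the NR4A receptors are known in muscle as regulators of glucose use and oxidative metabolism.

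The 6 libraries held between 33160508 and 48209846 counts, and each WT library was deeper than each M92KO library. Values are given in CPM, the counts of a gene relative to the size of its library, after TMM, a normalization that makes the bulk of the genes level between libraries. The raw counts behind the 10 genes ran from 67 for Fosb in M92KO replicate 1 to 37063 for Nr4a1 in WT replicate 3. The identity of the tissue was clear from 7 fibre genes (Ckm, Acta1, Myh4, Myh1, Tnnt3, Mb and Pvalb), which summed to between 106940 and 117544 CPM in every library. No row of the table carried the symbol Mir92b, so the deletion itself could not be read from these counts. The labels number the libraries of a group and do not say that each came from its own mouse, so the tests measure the spread between these libraries.

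The sequence that the knockout lacks is shown here because it sets which transcripts could pair with the microRNA directly. RefSeq (GRCm38.p6) places the precursor on the minus strand of chromosome 3, with miR-92b-3p at chr3:89227126-89227147 and miR-92b-5p at chr3:89227165-89227188. Capitals mark the seed, bases 2 to 8.
miR-92b-3p: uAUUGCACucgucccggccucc
miR-92b-5p: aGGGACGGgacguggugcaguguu

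A match of 7 letters to the miR-92b-3p seed (GTGCAAT, or TGCAATA, which ends in an A opposite base 1) was found in the annotated 3′-UTR (GENCODE M21) of 2 of the 10 genes, Jun and Nr4a3. Of the 13507 genes in the tested set that have such a 3′-UTR, 14.5% held one. A match to miR-92b-5p (CCGTCCC or CGTCCCA) was present in 2 of the 10, Fosb and Egr1, against 5.92% of those genes. The Egr1 site is not printed here. The sites of Nr4a3, Jun and Fosb are printed with the match in capitals, on the transcript strand and with the GRCm38 position of the match.
Nr4a3, miR-92b-3p match, chr4:48083995-48084001, plus strand: gcttccatatacaaGTGCAATttttta
Jun, miR-92b-3p match, chr4:95049901-95049907, minus strand: gaggggttacaaacTGCAATAgagact
Fosb, miR-92b-5p match, chr7:19303419-19303425, minus strand: atgggccctaccgcCCGTCCCccgtgc
The other 6 genes (Fos, Junb, Atf3, Ier2, Nr4a1 and Nr4a2) held no such match. A match is a string of letters and says nothing of whether the site is used.

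Across all 10 genes the mean was lower in M92KO than in WT muscle. None of the differences passed the test. At an adjusted p of 0.05 (edgeR's quasi-likelihood test, Benjamini-Hochberg over the 15788 genes) 0 of the 10 genes were called, against 0% of all genes, whose smallest adjusted p was 0.124. DESeq2 also called 0 of the 10, but 322 of 15788 genes in all. The supplementary methods' steps with limma called 0 of the 10, but 42 of 34714 genes. At an unadjusted p under 0.05, 4 of the 10 genes passed in edgeR (Junb, Nr4a1, Nr4a2 and Nr4a3), all lower in M92KO, beside 12.4% of all genes in either direction and 6.92% in the lower direction. In 1 of the 10 genes, Nr4a2, the 3 M92KO values all lay under the 3 WT values. Groups that do not overlap were seen in 18.4% of all genes, and with M92KO lower in 9.58%. The median log2 fold change (M92KO minus WT) of the 10 genes was -0.93, where that of all genes tested was -8.07e-05. The genes were picked with earlier results of these libraries known, and no test was run on the list as such.

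**Figure D1:**
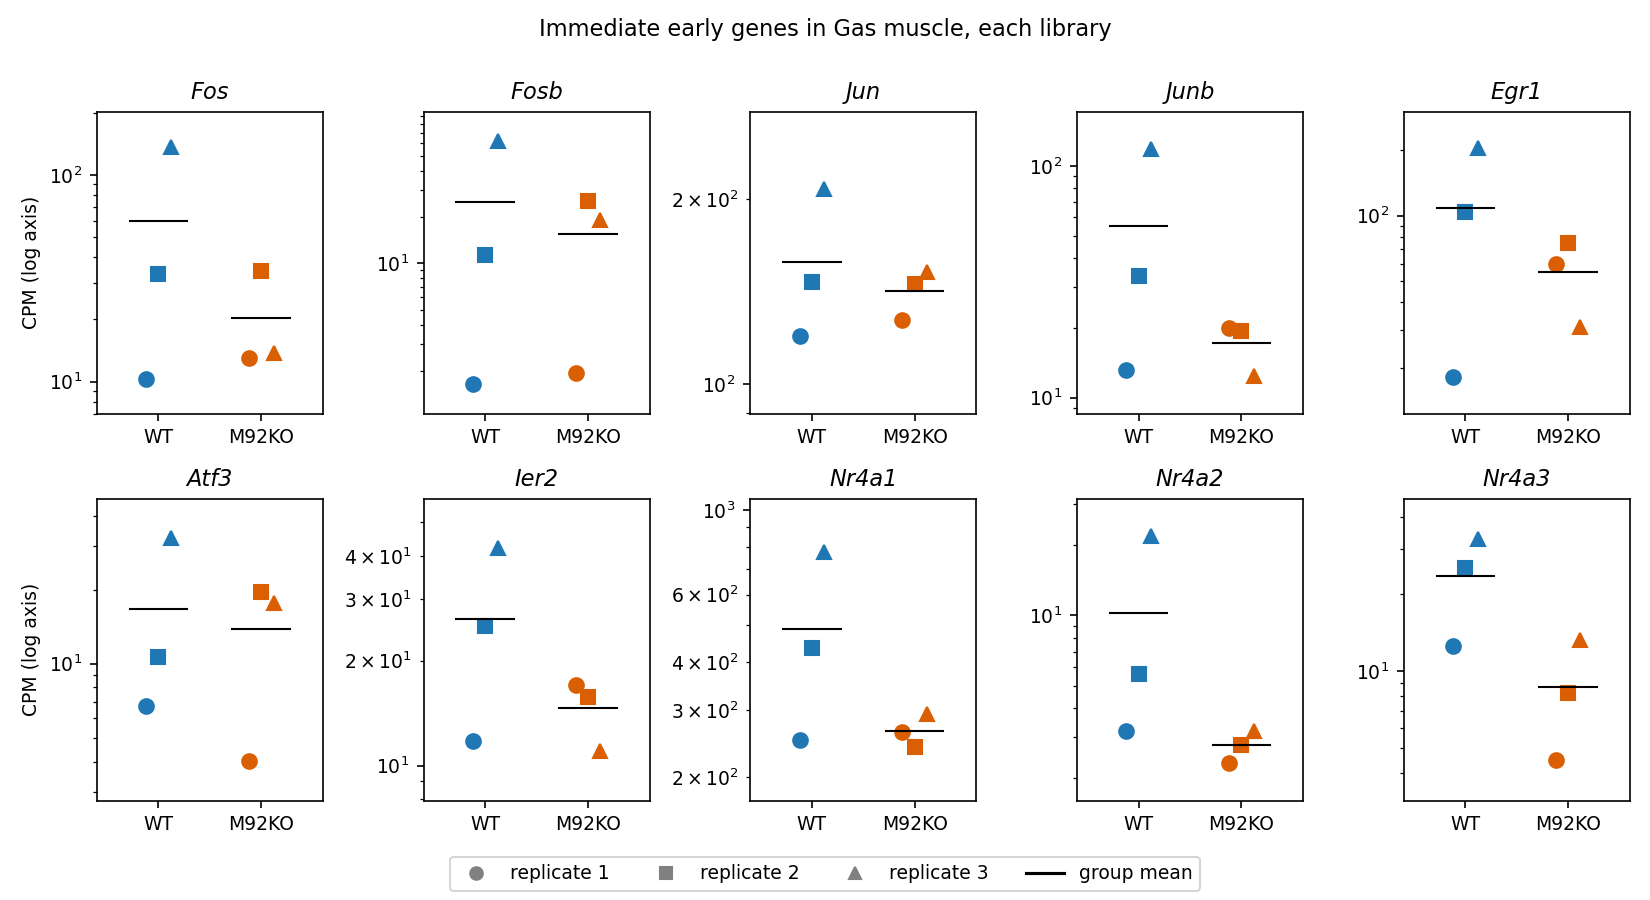
Level of each of the 10 genes in the 3 WT (blue) and 3 M92KO (orange) libraries, in TMM-scaled CPM on a log axis whose range differs between panels; the symbol gives the replicate number and the line the group mean. WT replicate 3 (blue triangle) is the highest of the 6 points in all 10 panels, and only in Nr4a2 do the groups not overlap.

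The plot of levels by library shows the values behind the difference in means. WT replicate 3 held the highest value of the 6 libraries for 10 of the 10 genes, whereas it was the highest for 14.8% of all genes tested. The summed level of the 10 genes was 447, 830 and 1635 CPM in WT replicates 1, 2 and 3. In M92KO replicates 1, 2 and 3 it was 512, 585 and 566 CPM. WT replicate 1 thus had the lowest sum of all and WT replicate 3 the highest, and the 3 M92KO sums fell between WT replicate 1 and WT replicate 2.

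Among the AP-1 subunits, Fos (ENSMUSG00000021250, chr12:85473890-85477273, plus strand) encodes the founding member of the Fos proteins, which bind DNA only as partners of a Jun protein. It was counted at 10.3, 33.1 and 137 CPM in WT and at 12.99, 34.4 and 13.7 CPM in M92KO. WT replicate 1 was the lowest library and WT replicate 3 stood 4.14-fold above WT replicate 2, so the groups overlapped. The log2 fold change was -1.57 (SE 0.80, edgeR adjusted p = 0.482), and the exact permutation test over the 6 libraries gave p = 0.7, where 0.1 is the smallest that 3 against 3 allows.

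Fosb (ENSMUSG00000003545, chr7:19302696-19310051, minus strand), whose truncated form is known to accumulate in brain after repeated stimulation, had the widest range of the 10. Its WT values were 1.65, 11.3 and 62.0 CPM, a span of 37.7-fold between WT replicates 1 and 3. Its M92KO values were 1.93, 25.3 and 19.1 CPM, a span of 13.1-fold. Replicate 1 of each group was low, and M92KO replicates 2 and 3 lay above WT replicate 2. Its log2 fold change of -0.70 had an SE of 1.09 and an adjusted p of 0.844, with an exact p of 1 by permutation.

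Jun (ENSMUSG00000052684, chr4:95049034-95052222, minus strand), the AP-1 subunit that can also pair with itself, was the steadiest of the 10 in WT muscle. It was counted at 120, 147 and 208 CPM in WT and at 127, 146 and 152 CPM in M92KO. The groups overlapped, and apart from WT replicate 3 all libraries lay between 120 and 152 CPM. This gave a log2 fold change of -0.16 (SE 0.18, 95% interval -0.56 to 0.25, adjusted p = 0.777). Exons of Jun share 232 bases with the antisense gene Junos. Whether the counting used strand is not given in the sources used here, and reads of this stretch could belong to either gene.

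Junb (ENSMUSG00000052837, chr8:84974484-84978718, minus strand), a Jun protein that activates transcription more weakly and can oppose Jun, followed Fos in WT muscle. Its values were 13.1, 33.5 and 118 CPM in WT and 19.98, 19.5 and 12.4 CPM in M92KO. WT replicate 1 lay among the M92KO libraries, while WT replicates 2 and 3 were above them all. The log2 fold change was -1.67 (SE 0.66, adjusted p = 0.365), with an exact permutation p of 0.3. Junb shares 173 exon bases with Prdx2 on the opposite strand, which was level between the groups (142 ± 4.94 CPM in WT and 145 ± 5.18 in M92KO, SD, n = 3).

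Egr1 (ENSMUSG00000038418, chromosome 18, plus strand), which binds GC-rich sites in the promoters of growth and matrix genes, showed 18.2, 104 and 204 CPM in WT. In M92KO it showed 59.7, 74.5 and 31.0 CPM. All 3 M92KO values lay between WT replicate 1 and WT replicate 2. Between the groups the log2 fold change was -0.98 (SE 0.68, adjusted p = 0.622), and the exact permutation p was 0.7.

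Atf3 (ENSMUSG00000026628, chr1:191170296-191218039, minus strand), a member of the CREB/ATF family induced by cell stress, did not follow the same order. Its WT values were 6.71, 10.6 and 32.5 CPM and its M92KO values 4.003, 19.6 and 17.7 CPM. M92KO replicates 2 and 3 lay above WT replicates 1 and 2, as they did for Fosb. For Atf3 the log2 fold change of -0.28 had an SE of 0.65 and an adjusted p of 0.906.

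Ier2 (ENSMUSG00000053560, chr8:84661331-84662852, minus strand) was counted at 11.8, 25.2 and 42.0 CPM in WT. The M92KO libraries gave 17.1, 15.7 and 11.02 CPM. WT replicate 1 lay inside the M92KO range and the other WT libraries above it, the same order as for Junb. Its log2 fold change was -0.85 (SE 0.39, adjusted p = 0.425, exact permutation p = 0.3).

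The NR4A receptors bind DNA without a known natural ligand, and their activity is set mainly by how much of them is made. Nr4a1 (ENSMUSG00000023034, chr15:101254269-101274795, plus strand), also called Nur77, had 249, 435 and 777 CPM in WT and 262, 239 and 292 CPM in M92KO. The 3 M92KO libraries were close together, with an SD of log2 CPM of 0.14 against 0.82 in WT, and WT replicate 1 lay among them. The log2 fold change was -0.88 (SE 0.33, 95% interval -1.64 to -0.12, adjusted p = 0.352), with an exact permutation p of 0.3.

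Nr4a2 (ENSMUSG00000026826, chr2:57106830-57124003, minus strand), or Nurr1, best known for its role in dopamine neurons, was the scarcest. It was counted at 3.20, 5.59 and 21.8 CPM in WT and at 2.33, 2.78 and 3.19 CPM in M92KO. The groups did not overlap, though the lowest WT library (3.204 CPM, 148 counts) and the highest M92KO library (3.195 CPM, 116 counts) were next to each other. The log2 fold change was -1.89 (SE 0.63, 95% interval -3.33 to -0.44, adjusted p = 0.302), and the exact permutation p was 0.1, the smallest possible.

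Nr4a3 (ENSMUSG00000028341, chr4:48045153-48086447, plus strand), or Nor-1, had 12.6, 25.4 and 32.98 CPM in WT and 4.46, 8.22 and 13.2 CPM in M92KO. A single pair crossed, with M92KO replicate 3 just above WT replicate 1, and all other M92KO values were under all WT values. Its log2 fold change of -1.45 had the smallest adjusted p of the 10 (SE 0.42, 95% interval -2.40 to -0.50, adjusted p = 0.247). The exact permutation p was 0.2. Unlike Nr4a1 and Nr4a2, Nr4a3 was spread about as widely in M92KO (SD of log2 CPM 0.78) as in WT (0.72).

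**Figure D2:**
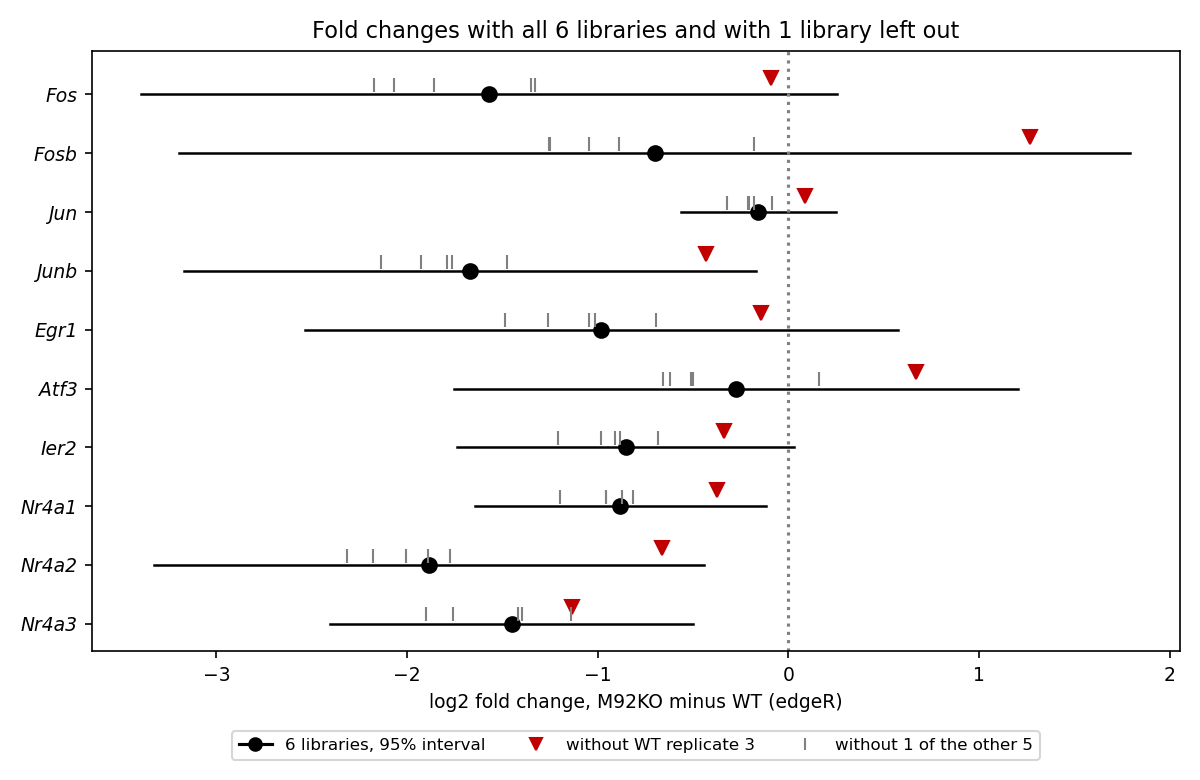
Log2 fold change (M92KO minus WT, edgeR) of each gene on the horizontal axis, as a black point with its 95% interval for all 6 libraries, as a red triangle without WT replicate 3, and as grey ticks without each of the other 5 libraries. The red triangle is the value farthest to the right for each of the 10 genes, and for Fosb, Jun and Atf3 it lies above 0.

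Leaving out single libraries moved the values as the plot of fold changes shows. Without WT replicate 3 the median of the 10 genes was -0.24, and 7 of the 10 were lower in M92KO. Fos went from -1.57 to -0.09 and Egr1 from -0.98 to -0.14. Fosb (1.27), Jun (0.09) and Atf3 (0.67) turned positive. The NR4A receptors stayed lower, at -0.37 for Nr4a1, -0.66 for Nr4a2 and -1.13 for Nr4a3. Only Nr4a2 and Nr4a3 then passed an unadjusted p of 0.05, beside 7.95% of 15997 genes, and the adjusted p was 0.611 for Nr4a2 and 0.601 for Nr4a3 in edgeR. Nr4a2 was again the single gene whose groups did not overlap, as were 26% of those genes. Without WT replicate 1, in contrast, 7 of the 10 genes passed the unadjusted threshold (all but Fosb, Jun and Atf3), beside 1600 of 15955 genes, and the groups of 6 did not overlap, beside 27.8% of those genes. Without M92KO replicate 1 or 2, Nr4a2 and Nr4a3 passed, beside 18.6% and 10.5% of all genes. No gene of the 10 was called after adjustment without any of the 6 libraries.

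The red cell genes were at their lowest in the library with the highest immediate early values. Globins and Alas2, 5 of 5 measured, summed to 74.0 CPM in WT replicate 3, to 214 and 223 CPM in WT replicates 1 and 2, and to between 143 and 336 CPM in M92KO. WT replicate 3 was also the deepest library. For genes of endothelium (6 of 6 tested), fibroblasts (6 of 6), smooth muscle (4 of 4) and fat cells (4 of 5) the sum in WT replicate 3 lay within the range of the other libraries, and for leukocytes (8 of 8) it was 146 CPM against 118 to 146. Schwann cell genes (5 of 5) summed to 122 CPM in WT replicate 3 and to between 122 and 125 in M92KO, against 164 and 165 in the other WT libraries. Between the genotypes, 3 Schwann cell, 2 fibroblast, 2 leukocyte and 1 endothelial gene passed an unadjusted p of 0.05, all lower in M92KO, beside 6.92% of all genes in that direction, and 0 of the fibre, smooth muscle, fat cell and red cell genes did. None of the markers was at 0 in all libraries. The part of blood content, nerve content or depth in the result was not tested. In whole muscle, fewer cells of a type and less RNA per cell cannot be told apart.

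**Figure D3:**
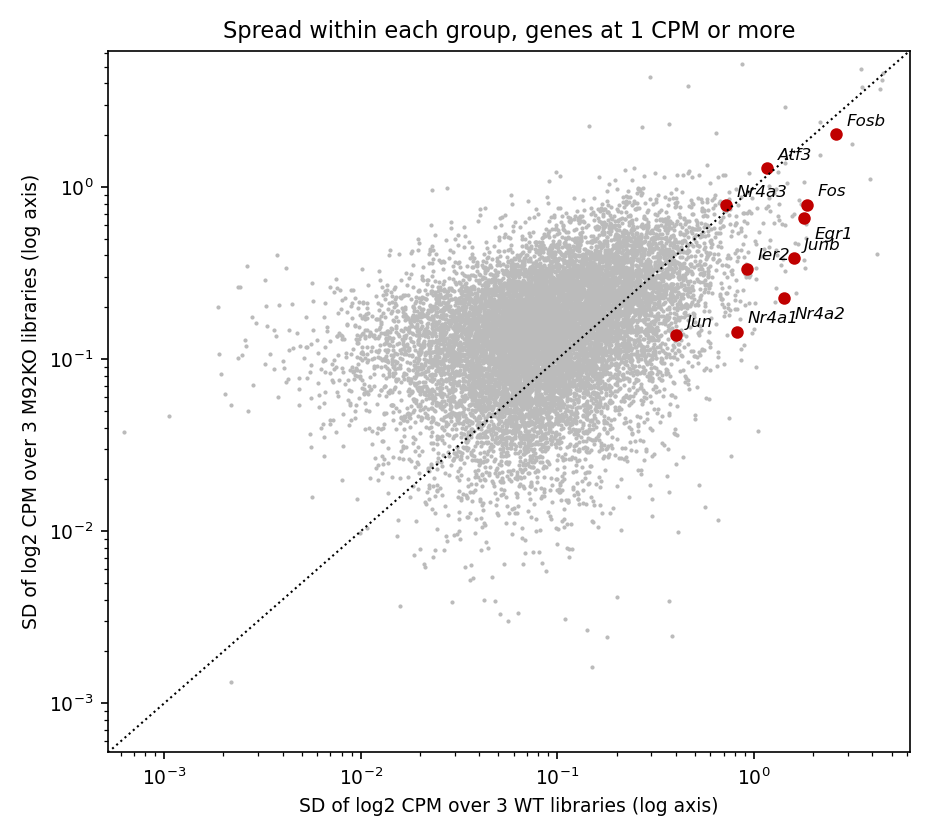
Standard deviation of log2 CPM over the 3 WT libraries (horizontal) and over the 3 M92KO libraries (vertical), both on log axes, for 13328 genes at a mean of 1 CPM or more (grey), with the 10 immediate early genes in red and the line of equal spread dotted. The red points lie toward the right of the cloud, with Jun the least far to the right, and 8 of the 10 lie under the line.

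The spread of these genes within a group was large beside that of other genes, as the plot of standard deviations shows. The median SD of log2 CPM over the 10 genes was 1.30 in WT and 0.52 in M92KO. A wide spread in WT was not particular to them. Among the other immediate early transcripts described below, the SD in WT ran from 0.0860 (Homer1) to 1.43 (Sik1). Over the 13328 genes with a mean of at least 1 CPM the median was 0.0891 in WT and 0.147 in M92KO, so that the M92KO libraries were in general the more variable. For 8 of the 10 genes the order was the opposite, with the larger SD in WT, which held for 30.6% of all genes. Atf3 and Nr4a3 were the exceptions. In WT the share of genes with a larger SD ran from 0.0675% for Fosb to 4.35% for Jun. In M92KO it ran from 0.113% for Fosb to 53.5% for Jun, so that Jun and Nr4a1 (51.1%) were of ordinary steadiness among the M92KO libraries. Whether the spread differs between the genotypes was not tested.

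The levels of different genes were compared per kilobase of annotated exon, as a rough allowance for length. The exons of all annotated transcripts of a gene were joined, so this length can exceed that of the transcripts present. For Fosb, with 7 annotated transcripts, it was 6243 bases. Nr4a1 was the most abundant, at 139 ± 76.2 CPM per kb in WT and 75.4 ± 7.55 in M92KO (SD, n = 3), and Jun came next, at 49.6 ± 14.1 and 44.5 ± 4.15. Their ranges did not overlap in either group. Egr1 (24.2 ± 20.8 and 12.3 ± 4.94), Fos (25.6 ± 28.7 and 8.66 ± 5.18), Junb (23.8 ± 24.1 and 7.51 ± 1.83) and Ier2 (17.3 ± 9.96 and 9.59 ± 2.09) followed, and their order was within their spread. Atf3 was at 7.71 ± 6.45 and 6.39 ± 3.95. Fosb (4.002 ± 5.19 and 2.47 ± 1.94), Nr4a3 (3.95 ± 1.72 and 1.44 ± 0.73) and Nr4a2 (2.52 ± 2.498 and 0.68 ± 0.11) were the scarcest per kilobase. On the scale of plain CPM, Nr4a1 alone made up between 40.9% and 55.8% of the summed level of the 10 genes in every library.

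The 10 genes did not move in fixed proportion. The ratio of Fosb to Fos counts was 0.159, 0.342 and 0.452 in WT replicates 1, 2 and 3. In M92KO replicates 1, 2 and 3 it was 0.149, 0.734 and 1.39. In counts, Fosb thus exceeded Fos in a single library, M92KO replicate 3. Atf3 counts did so there too (1.29 Atf3 counts per Fos count, against 0.237 to 0.649 in the other libraries). The ratios are not corrected for exon length. Per kilobase of exon, M92KO replicate 3 had 3.06 CPM for Fosb, 5.82 for Fos and 8.20 for Atf3. Junb was counted at 0.110, 0.229 and 0.568 of Jun in WT and at 0.157, 0.133 and 0.0815 of Jun in M92KO. These ratios were looked at after the values were known and carry no test.

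The stretch just before the start of transcription is shown for Fos, as the best known of the 10, and for the 4 genes that passed the unadjusted threshold, since it holds the sites through which CREB is known to act on such genes. Each line gives the 250 bases upstream of the RefSeq start (GRCm38.p6) on the strand of the gene, with each CRE half-site (TGACG, either strand) in capitals. For Nr4a1 this start lies inside the gene interval given above, so another annotated start lies farther upstream.
Fos, chr12:85473640-85473889, plus strand: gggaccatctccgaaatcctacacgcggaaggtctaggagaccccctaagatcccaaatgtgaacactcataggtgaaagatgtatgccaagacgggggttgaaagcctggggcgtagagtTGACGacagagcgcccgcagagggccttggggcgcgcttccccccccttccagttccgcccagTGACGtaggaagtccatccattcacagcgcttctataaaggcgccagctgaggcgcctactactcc
Junb, chr8:84978749-84978998, minus strand: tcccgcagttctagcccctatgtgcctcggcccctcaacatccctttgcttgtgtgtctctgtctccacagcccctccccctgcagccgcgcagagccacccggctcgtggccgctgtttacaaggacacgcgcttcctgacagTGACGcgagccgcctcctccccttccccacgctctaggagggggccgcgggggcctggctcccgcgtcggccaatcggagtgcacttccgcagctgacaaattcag
Nr4a1, chr15:101266596-101266845, plus strand: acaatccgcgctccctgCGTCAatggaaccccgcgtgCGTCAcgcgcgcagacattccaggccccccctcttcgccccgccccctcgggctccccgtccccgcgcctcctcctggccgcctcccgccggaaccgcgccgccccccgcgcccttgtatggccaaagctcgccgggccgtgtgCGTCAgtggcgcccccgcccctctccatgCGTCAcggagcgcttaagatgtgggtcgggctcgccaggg
Nr4a2, chr2:57124004-57124253, minus strand: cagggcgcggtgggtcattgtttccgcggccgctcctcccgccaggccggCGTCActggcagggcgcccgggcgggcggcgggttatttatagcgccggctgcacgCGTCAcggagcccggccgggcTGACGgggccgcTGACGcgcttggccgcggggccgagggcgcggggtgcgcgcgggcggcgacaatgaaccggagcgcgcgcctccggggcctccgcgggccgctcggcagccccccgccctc
Nr4a3, chr4:48045055-48045304, plus strand: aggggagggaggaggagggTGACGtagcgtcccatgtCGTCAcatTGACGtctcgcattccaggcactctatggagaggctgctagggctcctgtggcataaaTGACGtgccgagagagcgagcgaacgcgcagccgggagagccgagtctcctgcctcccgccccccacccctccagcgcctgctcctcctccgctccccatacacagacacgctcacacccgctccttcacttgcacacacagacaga

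In the window from 250 bases before to 50 after the start, 8 of the 10 genes had a RefSeq promoter in the table used (all but Egr1 and Ier2). A CRE half-site was found in 7 of these 8, with Jun the exception, and in 20.8% of 32851 promoters of the same length. Nr4a1, Nr4a2 and Nr4a3 each held 4 of them, Fos held 2, and Fosb, Junb and Atf3 held 1 each. The Fos half-sites begin 129 and 66 bases before the start. The full palindrome TGACGTCA, which contains the half-site on each strand, was in none of the 8 and in 1.79% of all promoters. The letters TATAAA, read on the strand of the gene, were in Fos and Junb and in 8.32% of promoters. The Fos match begins 33 bases before the start, whereas the Junb match begins at the start itself. No match was found in these windows for the CArG box bound by SRF (1.63% of promoters), the AP-1 site TGANTCA (7.81%), the NR4A half-site AAAGGTCA (1.51%) or the EGR site GCGTGGGCG (0.612%). For Atf3, as for Nr4a1, the start used lies inside the gene interval given above. Sites farther upstream or at other starts were not searched.

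**Figure D4:**
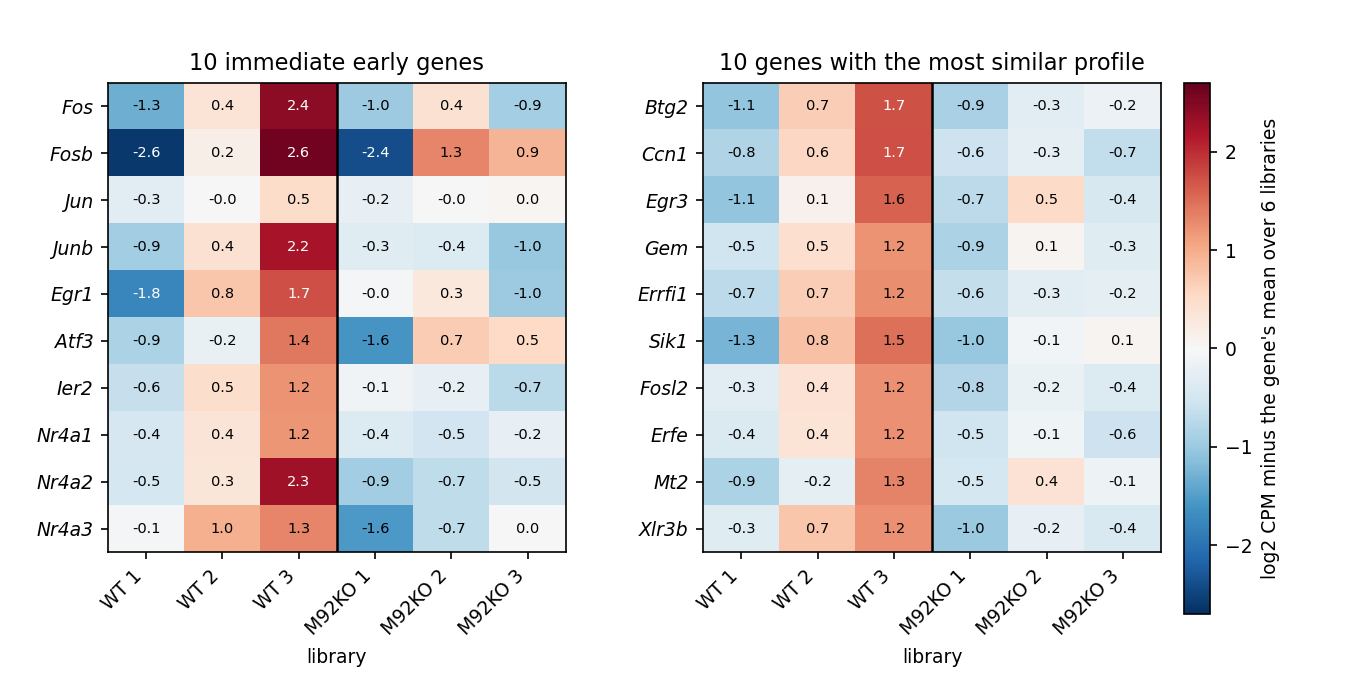
Centred log2 CPM (value minus the mean of the gene over 6 libraries) in each library, for the 10 immediate early genes on the left and, on the right, for the 10 other genes whose profile was nearest to their mean. Red is above and blue below the mean of the gene. Every row has its highest value in the WT 3 column, which the choice of the genes on the right favours.

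The mean profile of the 10 genes, as centred log2 CPM, was -0.94, 0.36 and 1.69 for WT replicates 1 to 3 and -0.85, 0.02 and -0.28 for M92KO replicates 1 to 3. Of 13318 other genes at 1 CPM or more, the 10 with the smallest root mean square distance to it over the 6 libraries were Btg2, Ccn1, Egr3, Gem, Errfi1, Sik1, Fosl2, Erfe, Mt2 and Xlr3b, at distances from 0.192 to 0.372. The heat map of centred values shows them beside the 10 genes, which lay at 0.409 (Nr4a1) to 1.23 (Fosb) from their own mean. Btg2, an antiproliferative gene induced by growth factors, was the nearest, with 40.0, 132 and 277 CPM in WT and 45.7, 68.3 and 74.9 CPM in M92KO. Ccn1, a secreted matrix protein, had 35.3, 92.4 and 208 CPM in WT and 42.5, 52.3 and 39.2 CPM in M92KO. Sik1, a kinase gene switched on by CREB, had 21.5, 90.1 and 144 CPM in WT and 25.4, 49.4 and 54.5 CPM in M92KO. Erfe encodes erythroferrone, a hormone that acts on iron metabolism, and Mt2 encodes a metal-binding metallothionein. In each of the 10, WT replicate 3 was the highest library, which their choice by nearness to the mean profile favours. None was called (edgeR adjusted p from 0.283 to 0.793).

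**Figure D5:**
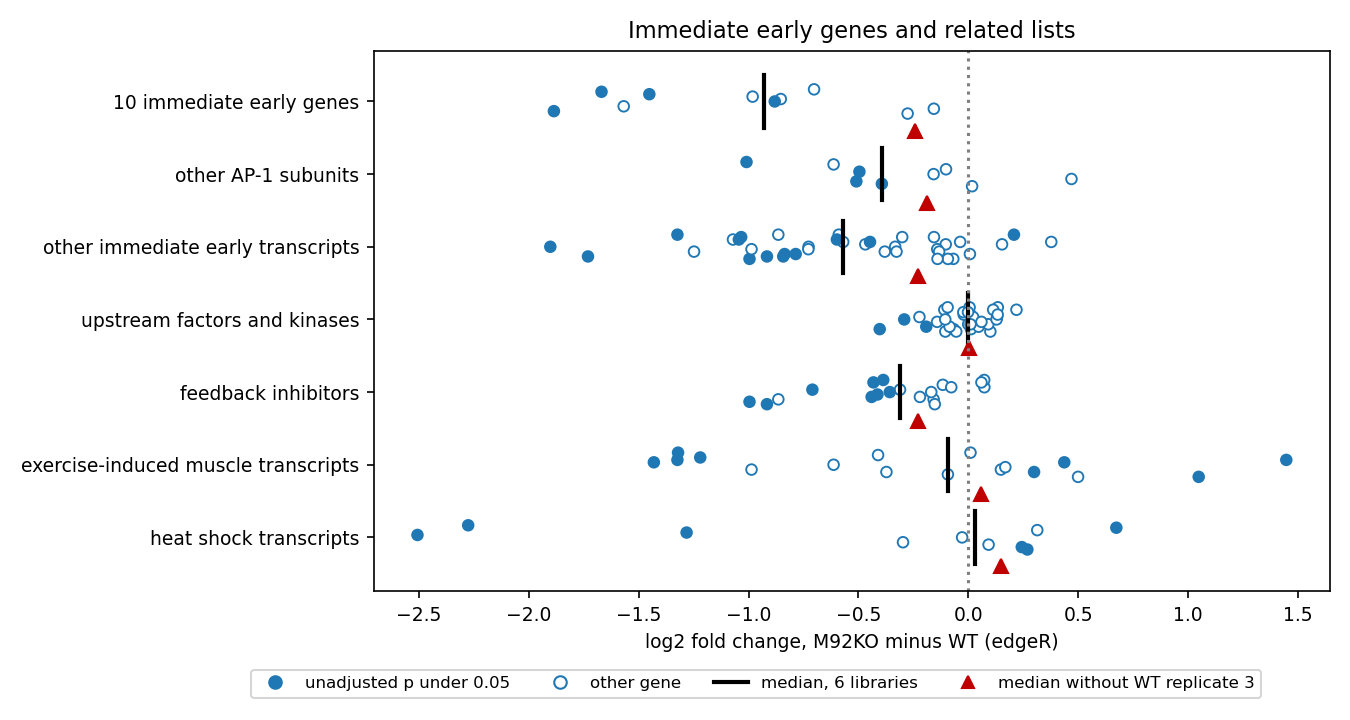
Log2 fold change (M92KO minus WT, edgeR) of every tested gene of the 10 immediate early genes and of 6 related lists; filled points passed an unadjusted p of 0.05, black bars are list medians with all 6 libraries and red triangles list medians without WT replicate 3. The median is lowest for the 10 genes at -0.93, and all 7 medians are higher without that library.

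The other genes of the pathway were taken from lists by function, and the plot of related lists gives their fold changes. Genes shared by lists are counted in each. No gene of any list was called after adjustment, so counts refer to an unadjusted p under 0.05 in edgeR. Of all genes, 12.4% passed it with all 6 libraries. With a library left out, this share changed too. It was 10%, 7.65% and 7.95% without WT replicates 1, 2 and 3. Without M92KO replicates 1, 2 and 3 it was 18.6%, 10.5% and 10.6%.

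Of 38 other immediate early transcripts, 37 were tested (Egr4 was not). Among them 12 passed with a lower and 1 with a higher value in M92KO, and the median log2 fold change was -0.57. WT replicate 3 was the highest library for 28 of the 37. The smallest p-values were those of 3 Krüppel-like factors. Klf2, a regulator of vessel wall and leukocyte quiescence, was counted at 61.2, 137 and 210 CPM in WT and at 30.8, 32.4 and 45.8 CPM in M92KO (log2 fold change -1.90, SE 0.38, adjusted p = 0.179). Klf4, its close relative, had 48.5, 101 and 146 CPM in WT and 17.8, 25.9 and 45.1 CPM in M92KO (log2 fold change -1.73). For Klf2 and Klf4 every M92KO library lay under every WT library. In this list the same held for Cebpb and Tiparp only, and among the 10 for Nr4a2 only. Over all genes it held for 9.58%. Klf6 differed by -1.04, with the highest M92KO value (92.6 CPM) just above the lowest WT value (91.7 CPM). Homer1, a scaffold of calcium channels and receptors, was the single gene that passed in the higher direction (log2 fold change 0.21). The other EGR factors were scarce, with Egr2 between 0.893 and 3.67 CPM (log2 fold change -1.07) and Egr3 between 1.45 and 9.26 CPM (-0.73), and neither passed. Without WT replicate 3 the list had 4 lower and 2 higher genes and a median of -0.23, and without WT replicate 1 it had 21 lower and 0 higher genes and a median of -0.81. Leaving out 1 of the other 4 libraries gave 5 (M92KO replicate 2) to 8 lower genes.

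Of 12 other AP-1 subunits, 9 were tested (Fosl1, Batf and Batf3 were not), and 4 passed, all lower in M92KO. Fosl2, the Fos-related protein Fra-2, was at 31.9, 51.3 and 92.6 CPM in WT and 22.6, 34.6 and 30.2 CPM in M92KO (log2 fold change -1.01, adjusted p = 0.302). Jund, the steadily expressed Jun protein, differed by -0.51, and Mafk, a small Maf protein that lacks an activation domain, by -0.39. The median of the list was -0.39. Without WT replicate 3 it was -0.19 and 0 of 10 genes passed, without M92KO replicate 1 or 2 it had 2 lower genes, and without WT replicate 1 it had 5 and a median of -0.53.

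Of the factors and kinases that switch the genes on, 32 were tested and 3 passed, all lower, and the median was -8.70e-04. Srf itself had 89.5, 86.9 and 92.0 CPM in WT and 90.0, 89.0 and 89.3 CPM in M92KO (log2 fold change -0.00125, 95% interval -0.14 to 0.14). Rps6ka5, the kinase MSK1 that acts on CREB and histone H3, was at 29.6, 26.7 and 28.3 CPM in WT and 20.9, 21.5 and 21.5 CPM in M92KO, with a log2 fold change of -0.40 (SE 0.07, adjusted p = 0.165). Crem, a CREB relative, differed by -0.29 and Creb1 by -0.19, and the groups of these 3 genes did not overlap. The groups of Crtc3 (lower in M92KO) and Mapk14 (higher) did not overlap either. Over all genes tested, groups did not overlap in 18.4%, and with M92KO lower in 9.58%. Without WT replicate 3, 1 of the 32 passed, and without M92KO replicate 1, 6 passed higher and 5 lower, beside 18.6% of all genes.

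Of 19 feedback inhibitors, 8 passed and all were lower in M92KO, with a median of -0.31. The smallest p-values were those of Spry1, an inhibitor of growth factor signalling (log2 fold change -0.44), Zfp36l2, which promotes the decay of short-lived transcripts (-0.36), and Nab2, a corepressor of EGR proteins (-0.41). Dusp1, the phosphatase that turns off MAP kinases, was at 102, 233 and 344 CPM in WT and 121, 129 and 109 CPM in M92KO (-0.92, adjusted p = 0.352). Its 4 lowest libraries were WT replicate 1 and the 3 M92KO libraries. Without WT replicate 2 or 3, 3 of the 19 passed, beside 7.65% and 7.95% of all genes. Without M92KO replicate 1, 3 passed lower and 1 higher, beside 18.6%. Without M92KO replicate 2 or 3, 5 passed, beside 10.5% and 10.6%, and without WT replicate 1, 8 did, beside 10%.

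Transcripts known to respond to a bout of exercise went both ways. Of 18, 17 were tested (Il6 was not), with 4 higher and 4 lower and a median of -0.09. Slc25a25, a calcium-dependent mitochondrial carrier, was at 208, 321 and 669 CPM in WT and 110, 181 and 189 CPM in M92KO (log2 fold change -1.32). Pdk4, which holds back pyruvate oxidation, was at 864, 1775 and 1251 CPM in WT and 754, 481 and 435 CPM in M92KO (-1.22), with its WT peak in replicate 2 and not in replicate 3. Ccn1, described above, had a log2 fold change of -1.32. On the higher side were Rrad, a small GTPase that dampens calcium channels (1.45), Ankrd1, a stretch-responsive titin-binding protein (1.05), and Vegfa, which draws blood vessels (0.30). Ppargc1a, the coactivator of mitochondrial genes, lay between 63.7 and 90.0 CPM with a log2 fold change of 0.17, and did not pass. Sik1 differed by -0.99 and did not pass. Without WT replicate 3, 1 gene passed higher and 2 lower, without WT replicate 1, 4 higher and 7 lower, and without M92KO replicate 1, 6 higher and 2 lower. Leaving out 1 of the other 3 libraries gave 2 to 3 higher and 2 to 4 lower.

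Of 10 heat shock transcripts, 3 passed lower and 3 higher, with a median of 0.03. The inducible chaperones Hspa1a and Hspa1b were at 90.5 and 91.5 CPM in WT replicate 3 and between 3.31 and 11.6 CPM in the other 5 libraries (log2 fold changes -2.28 and -2.51). These genes are near-identical copies, and how their reads were divided is uncertain. Dnajb1, the co-chaperone of Hspa1a, was at 22.9, 21.2 and 44.6 CPM in WT and 11, 11.4 and 14.05 CPM in M92KO (-1.28). Hspe1 (0.24), Hspb1 (0.67) and Bag3 (0.27) were higher in M92KO. WT replicate 3 was the highest library for 6 of the 10. Without it, 1 gene passed lower and 4 higher, and without M92KO replicate 1, 1 lower and 3 higher. Leaving out 1 of the other 4 libraries gave 2 to 3 in each direction.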

How the data were processed

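RNA from Gas muscle was sequenced in 6 libraries (3 WT, 3 M92KO), made with a SMARTer mRNA kit per the labels. The authors deposited raw, unnormalized counts of reads per gene symbol, and 0 columns were left without a sample. The submitters' processing notes name the builds GRCm38 and mm10. The aligner, the counter, the strand setting and the annotation are not given in the sources used here.

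Counts were filtered with filterByExpr (minimum count 10, minimum total 15), scaled by TMM and fitted with edgeR 4.0.16 in R 4.3.3 (glmQLFit, glmQLFTest, no covariate), and p-values were adjusted over all 15788 genes by the Benjamini-Hochberg method. The SE is the log2 fold change over the root of F. The exact permutation test (two-sided) used log2 CPM with a prior count of 0.5. Library totals of 33160508 to 48209846 put a floor of 3 counts at 0.0629 to 0.0916 CPM, for counting error only. The fit was tested on simulated data.

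The members and lists were chosen with earlier results of these data known. Named were all 10 members, the 3 genes of each related list with the smallest unadjusted p under 0.05 in each direction, Srf, Creb1, Crem, Fosl2, Jund, Egr2, Egr3, Dusp1, Ppargc1a and Sik1, and the 10 nearest profiles. Other genes were named for shared exons (Junos, Prdx2). Crtc3, Mapk14, Cebpb and Tiparp were named because their groups did not overlap, a choice made after the values were seen.

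Alternatives were DESeq2 size factors, DESeq2 1.42.0 (Wald test), no filter, 10 counts in every library, the supplementary methods' steps (normalizeBetweenArrays, log2 of value plus 1, limma 3.58.1), a replicate block and each library left out. Positions, exons and 3′-UTRs came from GENCODE M21 and promoters and microRNAs from RefSeq. All 10 members matched GENCODE M21. Sequences were searched in Python 3.11.15.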

Additional observations from a re-analysis of the deposited data

How the results depend on the processing

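The count of the 10 genes past an unadjusted p of 0.05 (4) was 2 with DESeq2's Wald test, beside 1722 of 15788 genes. It was 0 with the supplementary methods' steps and limma, beside 2287 of 34714 genes. Without a filter it was 6, beside 2207 of 23231 genes. With a library left out it was 2 to 7, beside 7.65% to 18.6% of all genes. The supplementary steps also left 0 of the 10 with separate groups. With edgeR it was 1, beside 18.4% of all genes. Leaving out a library gave 1 to 6, beside 24.9% to 37.3% of all genes. The replicate numbers were not shown to pair the libraries, since the deviations of same-numbered libraries correlated at 0.0739, 0.0389 and 0.0151. With the number as a block, 1 of the 10 was called (Nr4a3, log2 fold change -1.48, edgeR adjusted p = 0.016), and 2 genes in all, and the block changed no other call among the 10. Over all genes, 0 were called by edgeR, 322 by DESeq2, 6 without a filter, 42 with the supplementary steps and 0 to 401 with a library left out. All genes past the unadjusted threshold (1955) numbered 1222 to 2984 with a library left out. With a library left out the log2 fold change ran from -1.26 to 1.27 for Fosb, from -0.32 to 0.089 for Jun and from -0.65 to 0.67 for Atf3, each positive without WT replicate 3, and Atf3 also without M92KO replicate 1 (0.16). The other settings kept each of the 10 lower in M92KO. The cause of these shifts was not tested. The SE of the log2 fold change ran from 0.18 (Jun) to 1.09 (Fosb).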
